A study of Mus musculus with 30 samples.

Results

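Renal progenitors derived in culture from mouse embryonic stem cells (ESCs) were compared with whole embryonic kidneys, the tissue whose early cells the culture is meant to resemble. The comparison took the 3 arrays titled as progenitors and the 6 arrays titled as kidneys, 3 from the embryonic stage E12.5 and 3 from E13.5, out of 30 arrays in the series, and covered all 23986 genes of the deposited table. The progenitors all came from 1 ESC line, 1B10, kept on mitomycin C-treated embryonic fibroblasts and then grown without passage on gelatin as a flat culture, first with Fgf2 and activin A, next with Bmp4, activin A and Fgf2, next with Y27632, retinoic acid and activin A, and last with Bmp7 and Fgf2. The kidneys were untreated tissue, dissected and flash frozen, and hold every cell type of the organ, blood included. Their strain and sex, and whether animals were pooled, were not found in the labels or methods. Nothing in the labels says that replicates came from separate cultures or animals, so the p-values measure only the spread between these arrays, and 3 arrays a group limit the precision. The label "batch" put replicate 1 of the progenitors and of E13.5 in batch 1 and the other 7 of these arrays in batch 2.

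The mouse kidney forms when the ureteric bud grows into the metanephric mesenchyme. Nephron progenitors of the mesenchyme cap the bud tips, hold themselves undifferentiated through transcription factors such as Six2 and release Gdnf, which signals through Ret on the bud, while Wnt signals from the bud and from the progenitors themselves turn some of them into epithelial vesicles that become nephrons. A stroma marked by Foxd1 surrounds both and makes retinoic acid, and the intermediate mesoderm from which bud and mesenchyme descend is patterned along the body by Hox genes.

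All values are log2 signals from Affymetrix Mouse Gene 2.0 ST arrays, which read each gene with many short probes along its exons. A difference is progenitors minus the mean of E12.5 and E13.5, so that 1 unit is a doubling, and a gene is called where limma gave an adjusted p under 0.05 over all genes. Olfactory and vomeronasal receptor genes, which neither the kidney nor these cells are known to use widely, give a sense of where a signal is dim. The level below which 95% of them lay was 5.04 to 5.64 on the 9 arrays. Where a group lies at or below that level, a difference is that of the printed signals, and its size is uncertain. A lower limit to the fold, given for some genes below, comes from setting the arrays of that group to the level, and is smaller than the printed difference. In bulk RNA, fewer cells of a type and less RNA per cell cannot be told apart.

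Of the 23986 genes, 8210 were called (34.2%), 3410 higher in the progenitors (14.2%) and 4800 lower (20%), shares that are the background for each gene list below. At least a 2-fold difference was found for 997 of the higher and 1081 of the lower genes, and the median difference over all genes was 0.024. The 3 progenitor arrays lay entirely above or below the 6 kidney arrays for 6894 genes (28.7%), called or not, 2605 higher (10.9%) and 4289 lower (17.9%). Against E12.5 alone 6827 genes were called (28.5%), and against E13.5 alone 6668 (27.8%), both with the same 3 progenitor arrays. No gene was called between E13.5 and E12.5 by limma, where 465 had an unadjusted p under 0.05, so the 2 ages are treated as a single group below. Of the 8210 called genes, 7990 (97.3%) had a difference of the same sign within batch 1, from 1 progenitor and 1 E13.5 array, and within batch 2. These genes were called from the same arrays, which favours such agreement, so it is not a separate replication.

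The progenitor arrays differed more among themselves than the kidneys did. The median SD of a gene was 0.26 over the progenitors against 0.146 over E12.5 and 0.15 over E13.5, and 575 genes had an SD above 1 in the progenitors against 14 and 27. Pearson's r across genes was 0.957 to 0.9679 between progenitor arrays and 0.9888 to 0.9923 between kidney arrays of an age. Array medians ran from 5.774 to 5.855. The receptor genes themselves were higher in the progenitors for 232 of 1394 (16.6%) and lower for 6, with a median difference of 0.23, so small increases of dim genes stand on a background that moved the same way. Their median signal was 3.39, 3.37 and 3 in progenitor replicates 1, 2 and 3 and 2.91 to 2.99 in the kidneys. The shift thus lay mainly in replicates 1 and 2.

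The fit reported here takes a single spread for all groups, which is too small for progenitors that vary more, so its adjusted p-values can be too low. With array weights estimated by group, limma called 5884 genes, 2162 higher and 3722 lower, all of them among the 8210. Of the list counts of at least 5, the higher genes went from 6 to 2 for surface ectoderm, from 9 to 5 for proteases and inhibitors of the matrix and from 90 to 48 for microRNA genes, and the other counts stayed within 1.5 times. Of the genes named as called, Atf3, Ccdc80, Col3a1, Col4a1, Col5a1, Col8a1, Fabp4, Fanci, Fap, Fbn1, Hoxb9, Hoxc13 and Hsd3b1 lost the call. So did Lin28a, Lmx1b, Mki67, Mthfd2, Mvk, Mylk, Nkx2-5, Nnat, Pgk1, Pkm, Postn, Rad51ap1, Sox6, Synpo, Tgfbi, Xrcc2 and Zim1. Adjusted p-values of all these genes ran from 0.0518 (Mvk) to 0.167 (Hsd3b1).

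The name progenitor is used here as the arrays' title. Among 21 markers of nephron progenitors, 17 were lower in the progenitor arrays than in the kidneys and 1 was higher, with a median difference of -1.44. Six2 measured 5.08, 5.36 and 5.32 in progenitor replicates 1, 2 and 3 and 9.41 to 10.33 (median 9.89) in the 6 kidneys, a difference of -4.61 ± 0.28 (SE, adjusted p = 3.13e-11). All 3 progenitor arrays sat near the dim level of the receptor genes, far below every kidney. Pax2, a transcription factor needed in both mesenchyme and ureteric bud, measured 5.52, 4.42 and 6.47 against 9.60 to 9.82 (median 9.71), a difference of -4.24 ± 0.32 (SE, adjusted p = 6.07e-10). Replicate 3 was the highest of the progenitors and replicate 2 the lowest, and the groups stayed apart. Wt1, which the mesenchyme needs to survive, measured 6.24, 6.91 and 7.27 against 9.5 to 9.82 (median 9.58), a difference of -2.79 ± 0.23 (SE, adjusted p = 2.23e-09).

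Gdnf, the ligand that draws the bud into the mesenchyme, measured 3.84, 4.48 and 4.85 in the progenitors and 7.54 to 7.86 (median 7.70) in the kidneys, a difference of -3.32 ± 0.18 (SE, adjusted p = 4.43e-12). Uncx, a homeobox gene of the cap mesenchyme, measured 5.76, 5.63 and 5.93 against 9.5 to 10.30 (median 9.92), a difference of -4.20 ± 0.26. Neither gene overlapped between the groups. Sall1, a zinc finger factor of the cap, measured 9.06, 7.71 and 8.21 against 10.10 to 10.27 (median 10.23) and was 3.74-fold lower, without overlap. Eya1, a cofactor of Six2, measured 10.29, 8.94 and 10.67 against 11.09 to 11.71 (difference -1.44, adjusted p = 0.00435), though it was -0.89 without progenitor replicate 2 (adjusted p = 0.102). Cited1, another cap marker, was lower by less, -0.55 (adjusted p = 0.00646), with overlapping groups. Its difference was -0.31 without progenitor replicate 3 (adjusted p = 0.118).

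Some markers of the mesenchyme did not follow. Osr1, the zinc finger gene that marks intermediate mesoderm, measured 9.76, 10.72 and 10.98 against 11.03 to 11.41 (median 11.10) and was not called (-0.66, adjusted p = 0.147), although its groups did not overlap; replicate 1 was the lowest. Itga8, the integrin of the mesenchyme, measured 8.52, 9.46 and 9.5 against 9.19 to 9.41, and Meox1, a homeobox gene of the cap, 6.70, 8.57 and 8.66 against 8.19 to 8.96; neither was called.

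**Figure D1:**
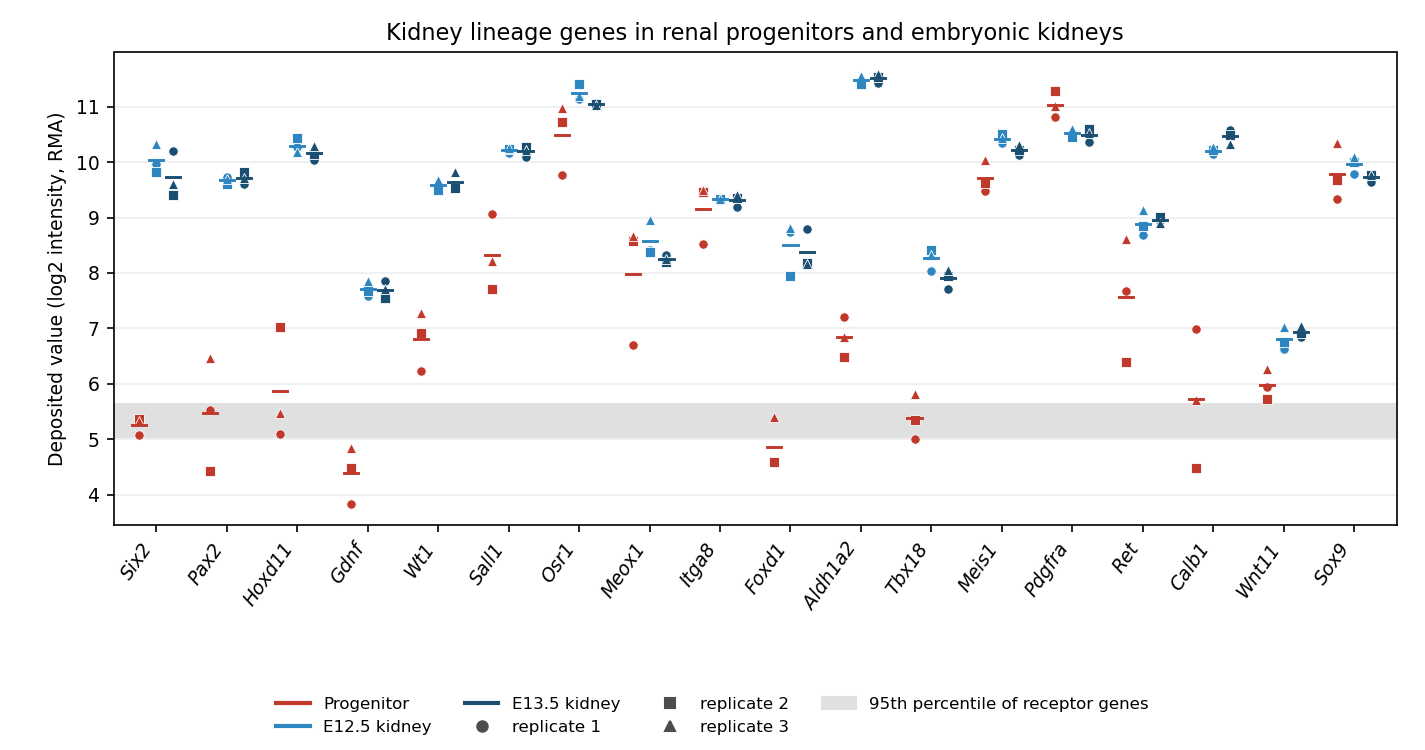
Log2 signal (vertical axis) of 18 kidney genes in the 3 progenitor arrays (red), 3 E12.5 kidneys (light blue) and 3 E13.5 kidneys (dark blue); circle, square and triangle are replicates 1, 2 and 3, short bars are group means, and the grey band is the range over the 9 arrays of the level below which 95% of receptor genes lay. Six2 in the progenitors lies at 5.08 to 5.36, in or next to the grey band, against 9.41 to 10.33 in the kidneys, whereas Sox9 overlaps.

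Of 25 genes of the ureteric bud, 15 were lower in the progenitors and none of the others was higher, with a median difference of -0.90. Calb1, the calcium-binding protein calbindin of the bud, measured 6.99, 4.48 and 5.70 against 10.14 to 10.58 (median 10.30), a difference of -4.71 ± 0.29 (SE, adjusted p = 3.12e-11). Emx2, a homeobox factor without which the bud fails to branch, measured 5.68, 5.34 and 6.09 against 8.49 to 9.15 (median 8.72), a difference of -2.99 ± 0.21 (SE, adjusted p = 2.48e-10). Ret, the receptor for Gdnf, differed less: its progenitor values were 7.68, 6.39 and 8.61 and its kidney values 8.68 to 9.13 (median 8.92), a difference of -1.42 ± 0.32 (SE, adjusted p = 0.00117). Progenitor replicate 3 came close to the lowest kidney and replicate 2 lay far below, without overlap. The co-receptor Gfra1 (-1.67), the Ret-driven ligand Wnt11 (-0.90), the bud transcription factor Gata3 (-1.17) and the epithelial adhesion genes Cdh16 (-2.51) and Epcam (-2.80) were also lower. The epithelial cadherin Cdh1 measured 9.44, 9.08 and 6.66 against 8.61 to 9.18 and was not called (-0.53, adjusted p = 0.258), with replicate 3 low. Sox9, Krt8, Tfap2a and Etv5 were not called either, with differences of -0.05, -0.30, 0.01 and -0.01.

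Genes that mark the vesicles and the nephron tubule formed from them were lower for 9 and higher for 2 of 21, with a median difference of -0.20. Lhx1, a homeobox gene of the vesicle, measured 4.14, 4.5 and 4.55 in the progenitors and 8.02 to 8.64 (median 8.24) in the kidneys, a difference of -3.76 ± 0.47 (SE, adjusted p = 1.08e-06). Pax8, a partner of Pax2, was at 5.73, 4.27 and 6.73 against 9.16 to 9.96 (difference -4.02 ± 0.36), and Wnt4, the signal that turns mesenchyme into epithelium, at 6.33, 6.04 and 6.13 against 8.03 to 8.92 (difference -2.35 ± 0.19). All 3 were without overlap. The higher genes were Spp1, the secreted phosphoprotein osteopontin, with 9.47, 8.45 and 7.57 against 4.69 to 6.19 (difference 3.15 ± 0.38 SE, adjusted p = 6.74e-07), and Cubn, the endocytic receptor cubilin of the proximal tubule. Cubn was high in replicates 1 and 2 and at the kidney level in replicate 3 (7.74, 8.01 and 4.49 against 4.42 to 4.78). Its difference of 1.99 (adjusted p = 0.00464) became 1.18 without progenitor replicate 2 (adjusted p = 0.113). Spp1 averaged 11.13 in the ESC arrays, and Cubn 9.14 in the intermediate mesoderm arrays. The Notch ligand Jag1 was lower (-0.90, adjusted p = 0.00615), and at -0.57 without progenitor replicate 2 (adjusted p = 0.119).

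Genes of podocytes, the filtering cells of the glomerulus, were higher for 6 of 17 and lower for 4. Nphs1, whose product nephrin builds the filtration slit, was not called, at 0.40 (adjusted p = 0.0647). Vegfa, which podocytes and many other cells secrete to attract vessels, measured 11.02, 10.64 and 10.68 against 8.86 to 9.33 (median 9.08), a difference of 1.70 ± 0.17 (SE, adjusted p = 5.6e-08), with every progenitor above every kidney. The higher members Ptpro, Magi2 and Thsd7a were each high in replicates 1 and 3 and at the kidney level in replicate 2. Ptpro, for example, measured 6.80, 4.34 and 6.87 against 4.53 to 5.26, a difference of 1.12 (adjusted p = 0.0127) that was 0.80 without progenitor replicate 1 (adjusted p = 0.13) and 0.58 without progenitor replicate 3 (adjusted p = 0.203). Sulf1 was higher by 0.77, and by 0.49 without progenitor replicate 1 (adjusted p = 0.0588). Thsd7a was at 0.57 without progenitor replicate 1 (adjusted p = 0.0604), and the call of Synpo, another higher member, ended without progenitor replicates 2 and 3, E12.5 replicate 3 and E13.5 replicate 3, each left out alone, with an adjusted p of up to 0.214. Without progenitor replicate 1 or 3 the higher genes numbered 4. Tcf21 and Foxc2, transcription factors of podocytes and of the mesenchyme, were lower at -4.04 ± 0.49 and -3.69 ± 0.29. Lmx1b was lower by less (-0.37, adjusted p = 0.011), and at -0.28 without progenitor replicate 3 (adjusted p = 0.0831).

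The stroma list was lower for 7 of 14 genes and higher for none. Foxd1, its defining transcription factor, measured 4.57, 4.59 and 5.41 against 7.95 to 8.82 (median 8.46), a difference of -3.65 ± 0.27 (SE, adjusted p = 5.99e-10). Aldh1a2, the enzyme that makes retinoic acid, measured 7.20, 6.48 and 6.84 against 11.41 to 11.59 (median 11.49), a difference of -4.73 ± 0.40 (SE, adjusted p = 3.31e-09), or 26.5-fold. Both stood clear of the kidneys on every array. Tbx18 (-2.70) and Meis2 (-1.37) were lower too. The platelet-derived growth factor receptors Pdgfra and Pdgfrb, which mark stroma and mesenchyme in many organs, were not called, at 0.51 (adjusted p = 0.305) and -0.02 (adjusted p = 0.968), with levels of 10.81, 11.29 and 11.01 against 10.37 to 10.60 for Pdgfra. Of the 18 genes that the study itself uses as markers, 12 were lower and 1 was higher. The 12 lower genes all came from its kidney markers. The higher gene was Lin28a, which the study used as a marker of pluripotency. It used Esrrb, Lefty2 and Pou5f1 in the same way, and these were not called. Most of the 18 stand in the lists above, and some may be among the gene sets that the study read on these arrays, so the count is not independent evidence. The study measured these markers by quantitative PCR or immunostaining. By PCR it described the levels in the progenitors as similar to those of E13.5 kidney cells. By staining it found Six2, Wt1 and Pax2 protein in part of the cells. Those are other measures than array signals, and the difference between them was not tested.

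Of 13 genes that make, carry or answer retinoic acid, 7 were lower and none higher. Crabp2, which carries retinoic acid to its receptors, measured 6.33, 6.90 and 6.36 against 9.74 to 10.34 (median 9.89), a difference of -3.41 ± 0.26 (SE, adjusted p = 7.23e-10). Crabp1 (-2.73), the retinol transporter Stra6 (-2.62) and the synthesis enzymes Aldh1a3 (-1.96) and Rdh10 (-1.78) were lower. The receptor gene Rarb and the degrading enzyme Cyp26a1, both induced by retinoic acid in many cells, were not called, at -0.29 (adjusted p = 0.552) and 1.13 (adjusted p = 0.142). Of 18 Wnt targets and inhibitors, 7 were lower and 3 higher. The lower ones included the transcription factors Lef1 (-1.75) and Tcf7 (-1.58) and the feedback inhibitor Axin2 (-1.03, and -0.59 without progenitor replicate 2, adjusted p = 0.109). The secreted inhibitors Frzb (1.49), Dkk3 (1.01) and Wif1 (0.96) were higher, and Sfrp2 was lower (-2.09). The difference of Wif1 was 0.45 without progenitor replicate 1 (adjusted p = 0.186).

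Hox genes, whose order in their clusters matches the position along the body where they are used, differed most in the posterior groups. Of 39 measured, 23 were lower in the progenitors and 2 higher. Of the 12 genes of paralog groups 1 to 4, 4 were lower and 1 higher (median -0.42), and of the 11 of groups 5 to 8, 7 were lower (median -1.07). All 10 genes of groups 9 to 11 were lower, with a median of -2.62, though Hoxb9 (-0.82, adjusted p = 0.0397) was not called without progenitor replicates 1 and 2, E12.5 replicates 1, 2 and 3 and E13.5 replicate 2, each left out alone, with an adjusted p of up to 0.299. Of the 6 in groups 12 and 13, 2 were lower and 1 higher. Hoxd11, which with Hoxa11 and Hoxc11 sets up the metanephric mesenchyme, measured 5.09, 7.02 and 5.48 against 10.04 to 10.43 (median 10.23), a difference of -4.46 ± 0.45 (SE, adjusted p = 6.05e-08). Replicate 2 was the highest progenitor, and still below every kidney. The differences of Hoxc10, Hoxd10 and Hoxa10 were -3.56 ± 0.33, -3.20 ± 0.29 and -3.05 ± 0.35. Hoxc13, the higher gene of the last groups, was not called without replicate 2 (adjusted p = 0.0747) or 3 (adjusted p = 0.0538). Signals of overlapping and antisense transcripts in the Hox clusters may not be separated on these arrays.

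**Figure D2:**
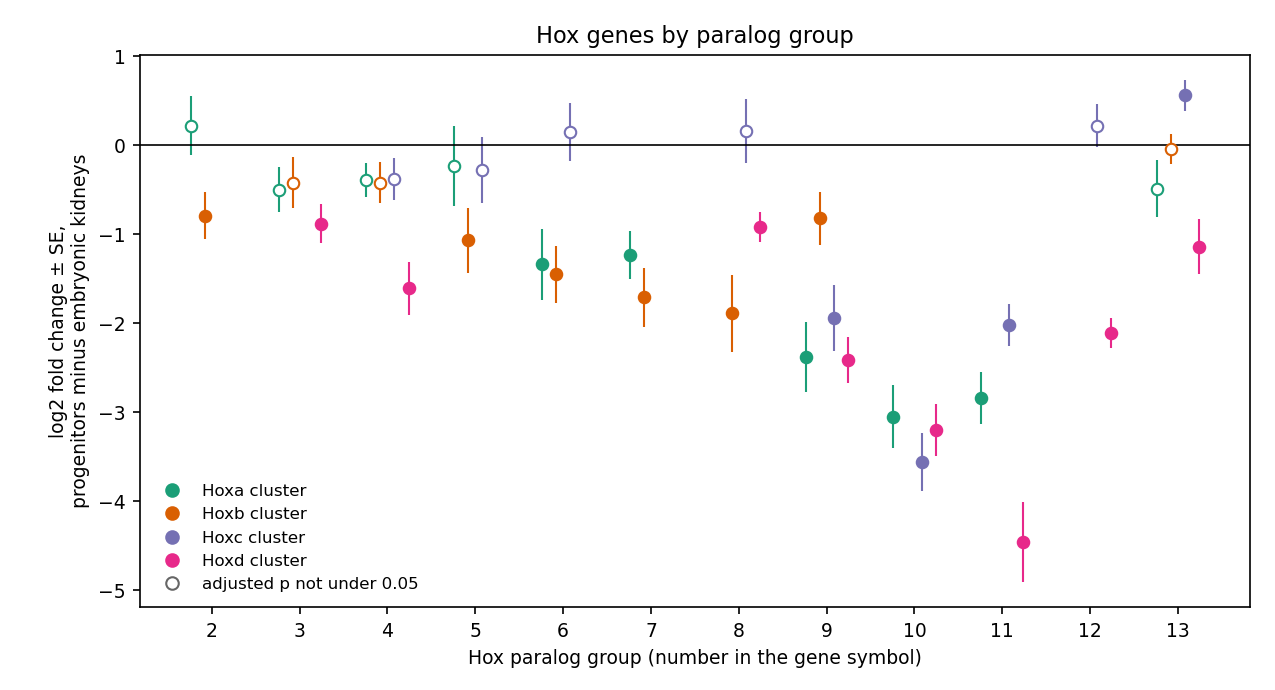
Log2 difference, progenitors minus kidneys (vertical axis, error bars SE), of the Hox genes of paralog groups 2 to 13, by group (horizontal axis) and coloured by cluster a to d; open points were not called. All 10 genes of groups 9 to 11 are below 0, with a median of -2.62, and groups 5 to 8 lie closer to 0, with a median of -1.07.

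Marker genes of cells that a whole kidney holds beside its own lineages were lower in the progenitors. Endothelial genes were lower for 17 of 20 and higher for none, with a median difference of -2.04. Kdr, the receptor for Vegfa, measured 6.48, 5.47 and 6.55 against 9.17 to 9.49 (median 9.31), a difference of -3.09 ± 0.50 (SE, adjusted p = 3.51e-05). Pecam1 measured 7.92, 6.37 and 5.51 against 8.82 to 9.26 and Cdh5 8.87, 8.88 and 6.68 against 10.15 to 10.37; replicate 3 was the lowest in both. Red cell genes were lower for 13 of 15, and the embryonic globin Hbb-y measured 4.10, 4.01 and 4.03 against 11.32 to 11.76 (median 11.55), a difference of -7.56 ± 0.34 (SE, adjusted p = 5.36e-13). The progenitor values lay below the dim level, and with each of these arrays set to its own dim level the signal was at least 72.8-fold lower. Hbb-bh1 (-6.17 ± 0.87), Hba-x (-5.79 ± 0.39) and Ahsp (-4.86 ± 0.28) followed. Macrophage genes were lower for 8 of 20, among them C1qb (-1.99), Fcer1g (-1.83), Ctss (-1.46) and Csf1r (-1.26), and for 5 without progenitor replicate 1. The mean signal of the red cell list was 4.88, 4.68 and 4.67 in the progenitors and 7.17 to 8.41 in the kidneys, and that of the endothelial list 6.16, 6.28 and 5.84 and 7.63 to 8.01. The part that these cells have in the other differences was not tested.

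The genes higher in the progenitors included many of the acute phase response, secreted and receptor proteins that many cells make after cytokines of the interleukin 6 family and after infection or injury. Of 31 such genes, 21 were higher and 1 was lower, with a median difference of 1.12. Cp, the copper-carrying oxidase ceruloplasmin, measured 10.69, 9.24 and 10.43 in the progenitors and 3.94 to 4.8 (median 4.61) in the kidneys, a difference of 5.65 ± 0.32 (SE, adjusted p = 7.96e-12). Serpina3n, an inhibitor of serine proteases, measured 9.66, 11.21 and 10.12 against 4.36 to 5.40 (median 4.86), a difference of 5.58 ± 0.37 (SE, adjusted p = 8.87e-11). In both genes all progenitors lay far above the kidneys, which were at or near the dim level; for Cp all 6 kidneys were below it, and with these set to that level the signal was at least 32.7-fold higher. Osmr, a receptor chain for oncostatin M, measured 9.39, 11.06 and 10.48 against 5.41 to 5.83 (median 5.52), a difference of 4.85 ± 0.28 (SE, adjusted p = 1.58e-11). Saa3, a serum amyloid A protein, measured 7.28, 10.73 and 9.24 against 4.5 to 4.84 (median 4.65), a difference of 4.58 ± 0.56 (SE, adjusted p = 8.44e-07). Lcn2, the iron-siderophore binder lipocalin 2, measured 8.31, 10.02 and 9.29 against 5.06 to 5.83 (median 5.21), a difference of 4.01 ± 0.43 (SE, adjusted p = 1.22e-07). Replicate 1 was the lowest progenitor for Osmr, Saa3 and Lcn2 and the highest for Cp, and none overlapped with the kidneys.

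Receptors and regulators of the interleukin 6 family were higher by smaller amounts: the transcription factor Stat3 by 1.89 ± 0.17, the shared receptor chain Il6st by 1.12 ± 0.15, the leukaemia inhibitory factor receptor Lifr by 0.94 ± 0.20, the feedback inhibitor Socs3 by 0.88 ± 0.20, and the transcription factors Cebpb and Cebpd by 1.35 ± 0.17 and 1.19 ± 0.20. The complement protein C3 was high in replicates 2 and 3 alone (5.43, 9.54 and 8.70 against 5.08 to 5.92), a difference of 2.51 (adjusted p = 0.000851). Lbp, which binds bacterial lipopolysaccharide, was the lower member, with 6.36, 7.01 and 6.33 against 7.81 to 8.54 (difference -1.49 ± 0.24). Il6 itself and the liver-type amyloid genes Saa1 and Saa2 were not called, at 0.49, -0.22 and 0.01. In the ESC arrays Serpina3n averaged 7.93 and Cp 5.36.

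The promoter windows of these genes, 300 bases around the start of the gene in RefSeq (GRCm38.p6), were searched on both strands for the letters TTGCNNAA, a form of the C/EBP motif, and for TTCNNNGAA, a form of the STAT motif. The first was found in 11 of the 23 acute phase genes with a window (47.8%), against 11.7% of all 17642 genes with windows, and the second in 2 of 23 (8.7%), against 9.24%. Both shares are of the whole list, called or not, and the 11 genes included Il6, Saa1 and Saa2, which were not called. Windows are shown for a pair of strongly higher genes that held TTGCNNAA, with the match in capitals, on the strand of the gene; a match is a string of letters and not a measured binding site. The Saa3 window is chr7:46715627-46715926 on the minus strand and the Lcn2 window chr2:32387690-32387989 on the minus strand.
Saa3: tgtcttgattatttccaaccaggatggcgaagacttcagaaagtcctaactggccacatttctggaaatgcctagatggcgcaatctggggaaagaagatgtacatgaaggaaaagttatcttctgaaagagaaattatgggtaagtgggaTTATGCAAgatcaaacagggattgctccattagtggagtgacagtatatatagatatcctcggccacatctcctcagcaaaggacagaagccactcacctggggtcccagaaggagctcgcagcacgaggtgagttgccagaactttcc
Lcn2: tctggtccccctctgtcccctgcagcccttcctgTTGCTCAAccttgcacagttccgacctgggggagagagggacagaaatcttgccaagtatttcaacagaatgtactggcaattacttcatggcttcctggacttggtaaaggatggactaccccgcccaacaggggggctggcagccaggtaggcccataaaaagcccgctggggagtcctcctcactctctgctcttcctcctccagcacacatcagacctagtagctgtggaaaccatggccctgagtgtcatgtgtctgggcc

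**Figure D3:**
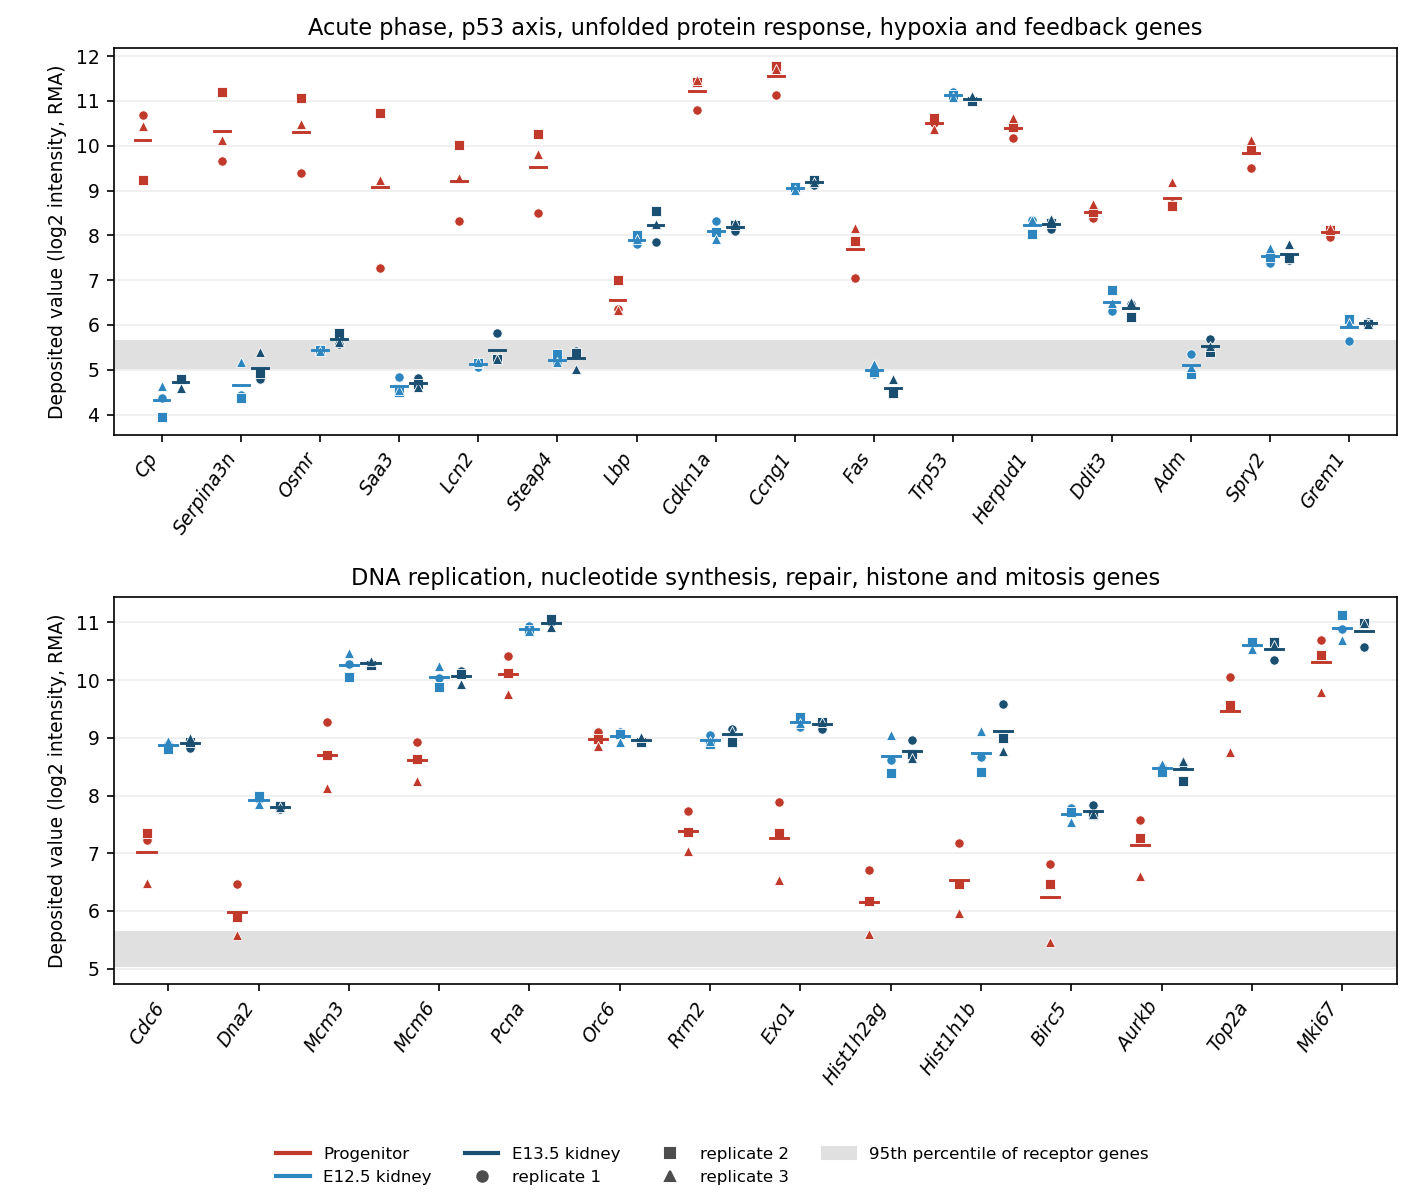
Log2 signal (vertical axis) of genes of stress, cytokine and growth factor responses (upper panel) and of the cell cycle (lower panel) in the 3 progenitor (red), 3 E12.5 (light blue) and 3 E13.5 (dark blue) arrays; circle, square and triangle are replicates 1, 2 and 3, short bars are group means, and the grey band is the receptor gene level. Cp, Serpina3n, Cdkn1a and Adm stand above the kidneys on every progenitor array, Lbp and Trp53 stand below, and nearly all cell cycle genes shown are lower, with Orc6 overlapping.

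Many genes of the extracellular matrix were also higher. Of 39 collagens, proteoglycans and glycoproteins, 25 were higher and 2 lower, with a median difference of 1.02. The calls of the higher members Ccdc80, Col15a1, Col4a1, Col5a1, Col8a1 and Fbn1 ended without progenitor replicate 2, with adjusted p-values from 0.0771 (Col8a1) to 0.232 (Col4a1). That of Postn ended without progenitor replicate 3 (adjusted p = 0.127). Aspn, a small proteoglycan of connective tissue, measured 7.78, 10.35 and 10.72 against 4.35 to 6.34 (median 5.75), a difference of 4.30 ± 0.52 (SE, adjusted p = 6.42e-07). Thbs2, which binds matrix proteases and collagen fibres, measured 10.24, 10.04 and 10.52 against 6.25 to 6.85 (median 6.79), a difference of 3.61 ± 0.30 (SE, adjusted p = 2.68e-09), or 12.2-fold. The collagen VI chain Col6a1 measured 10.10, 11.06 and 10.76 against 7.74 to 8.42 (median 8.17), a difference of 2.51 ± 0.25 (SE, adjusted p = 3.22e-08). None of these overlapped, and replicate 1 was lowest for Aspn and Col6a1. The proteoglycan Ogn (2.85), the crosslinking enzyme Lox (2.47), decorin, Dcn (2.30), and Col3a1 (1.22, and 1.06 without progenitor replicate 2, adjusted p = 0.0753) were higher, whereas the collagen I genes Col1a1 (0.64, adjusted p = 0.105) and Col1a2 (0.63, adjusted p = 0.142) and fibronectin, Fn1 (0.35, adjusted p = 0.0722), were not called. The microfibril gene Mfap5 (-1.20) and Tgfbi (-0.87) were lower, Tgfbi at -0.75 without progenitor replicate 2 (adjusted p = 0.0934) and -0.82 without progenitor replicate 3 (adjusted p = 0.0563). Proteases and inhibitors of the matrix were higher for 9 of 23 and lower for none, led by Mmp19 (2.45), Adamts12 (1.95) and Adamts2 (1.52).

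Markers of fibroblasts accompanied the matrix genes in part. Over all genes 14.2% were higher and 20% lower. The cartilage and bone, mesothelial, adrenal and gonad, and heart and skeletal muscle counts below did not stand far above those shares. Fibroblast genes were higher for 4 of 14: Dpt (6.56, 8.90 and 9.26 against 4.91 to 5.19, difference 3.32), Tbx15 (3.17), Prrx1 (1.36) and Fap (0.95, and 0.74 without progenitor replicate 3, adjusted p = 0.117). The mean signal of that list was 6.93, 7.11 and 7.20 in the progenitors and 6.18 to 6.33 in the kidneys. The actin Acta2, found in smooth muscle and in activated fibroblasts, measured 9.86, 11.40 and 12 against 8.19 to 9.23, a difference of 2.34 ± 0.35 (SE, adjusted p = 1.15e-05), and Tagln was higher by 2.07; the other smooth muscle genes Myh11 (0.16, adjusted p = 0.566) and Cnn1 (0.68, adjusted p = 0.0992) were not called, and Mylk was lower (-0.56). The call of Mylk ended without progenitor replicates 1 and 2 and E13.5 replicate 1, each left out alone, with an adjusted p of up to 0.259. Of 16 cartilage and bone genes, Alpl (1.90) and Runx2 (1.17) were higher, and Hapln1 (-2.51), Col9a1 (-1.25), Col2a1 (-1.05) and Sox6 (-0.68) lower. Hapln1 was at -2.07 without progenitor replicate 1 (adjusted p = 0.0661) and -2.19 without progenitor replicate 2 (adjusted p = 0.058), and the call of Sox6 ended without progenitor replicates 1 and 2, E12.5 replicate 2 and E13.5 replicates 2 and 3, each left out alone, with an adjusted p of up to 0.3. Of 10 mesothelial genes, Gpm6a was higher (1.56) and Rspo1 (-2.55) and Krt7 (-0.88) lower. Gpm6a was at 0.84 without progenitor replicate 1 (adjusted p = 0.201) and 1.03 without progenitor replicate 3 (adjusted p = 0.131), and Krt7 at -0.65 without progenitor replicate 1 (adjusted p = 0.086). Of 10 genes of adrenal gland and gonad, the transcription factor Gata4 was higher, at 8.12, 8.84 and 6.65 against 5.58 to 6.19 (difference 1.92, adjusted p = 0.00132), and Mc2r (-0.89) and Hsd3b1 (-0.68) were lower. The call of Hsd3b1 ended without progenitor replicates 1 and 2, E12.5 replicate 2 and E13.5 replicate 1, each left out alone, with an adjusted p of up to 0.192. Of 19 genes of heart and skeletal muscle, Pax3 (1.23) and Ryr2 (0.78) were higher and Des (-1.70) and Nkx2-5 (-0.45) lower. Pax3 was at 0.73 without progenitor replicate 1 (adjusted p = 0.116), and Nkx2-5 at -0.35 without progenitor replicate 1 (adjusted p = 0.101) and -0.36 without E13.5 replicate 1 (adjusted p = 0.053). The part that cells of these kinds had in the values was not tested.

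**Figure D4:**
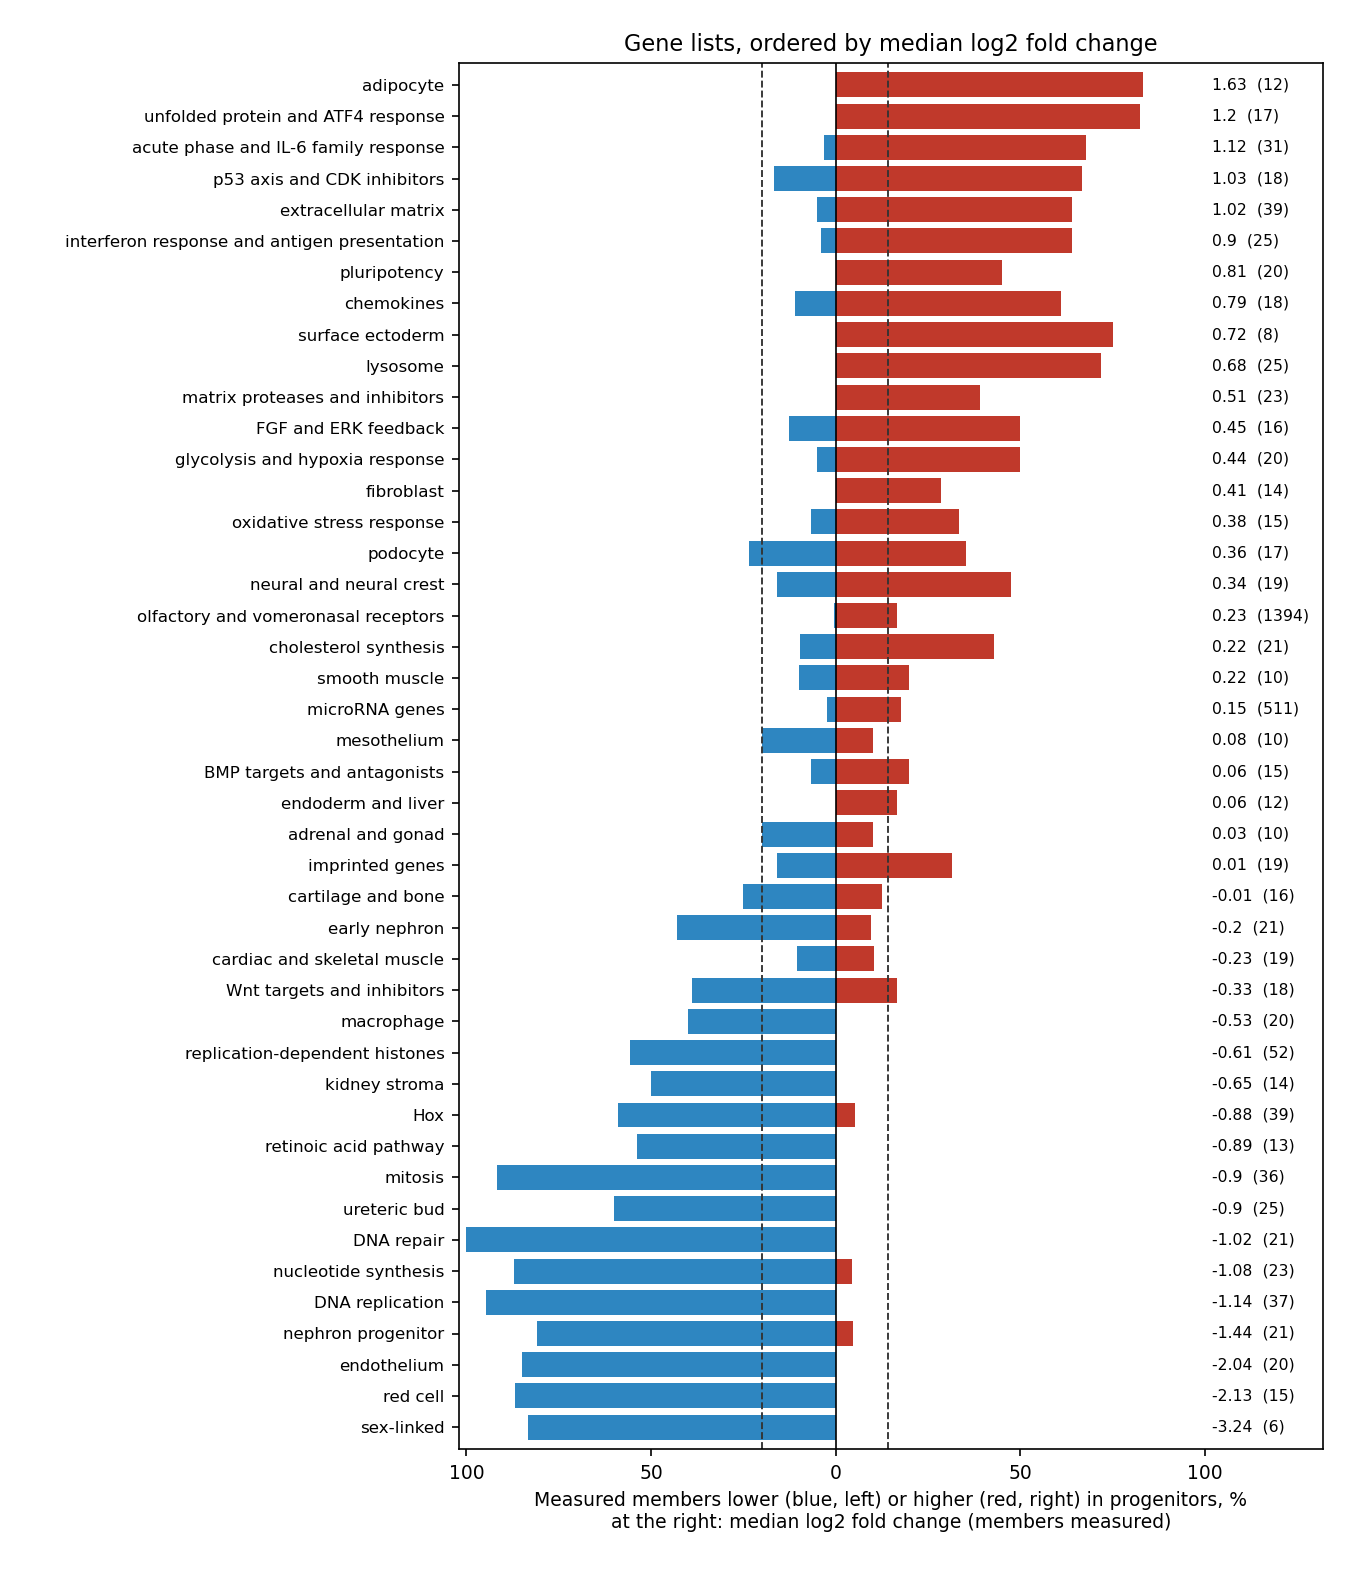
Share of the measured members of each gene list that were lower (blue, to the left) or higher (red, to the right) in the progenitors, in percent, ordered by the list's median log2 difference, which stands at the right with the number measured; dashed lines are the shares over all genes, 20 lower and 14.2 higher. DNA repair, DNA replication and mitosis have nearly all members lower, and the unfolded protein and ATF4, adipocyte and lysosome lists have most members higher.

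Chemokines and interferon-induced genes were higher in part. Of 18 chemokines and their receptors, 11 were higher and 2 lower. Ccl2, which attracts monocytes, measured 6.47, 7.58 and 7.28 against 4.89 to 5.47 (difference 2.04 ± 0.27) and averaged 8.77 in the ESC arrays. Cxcl5 (2.34), Cx3cl1 (2.15) and Ackr4 (1.54) were higher, and Cxcl13 (-1.89) and Ackr3 (-1.46) lower. Of 25 genes of the interferon response and antigen presentation, 16 were higher and 1 was lower, with a median of 0.90. Tap1, which loads peptides for antigen presentation, measured 7.56, 7.89 and 7.77 against 5.94 to 6.28 (median 6.09), a difference of 1.69 ± 0.12 (SE, adjusted p = 3.7e-10), without overlap. Ifi44 (2.09), Mx2 (1.59) and B2m (1.36) were higher and Rsad2 lower (-1.20); Usp18 was higher by 1.76, and by 0.97 without progenitor replicate 1 (adjusted p = 0.115).

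Genes of the p53 axis and the inhibitors of cyclin-dependent kinases were higher for 12 of 18 and lower for 3. Cdkn1a, whose product p21 halts the cycle before DNA replication, measured 10.80, 11.43 and 11.46 against 7.92 to 8.31 (median 8.16), a difference of 3.10 ± 0.15 (SE, adjusted p = 6.23e-13), or 8.57-fold. Ccng1, a p53 target, measured 11.13, 11.79 and 11.72 against 9.02 to 9.24 (median 9.10), a difference of 2.45 ± 0.12 (SE, adjusted p = 5.36e-13). Eda2r, a receptor gene that p53 also activates, measured 8.73, 9.46 and 8.87 against 4.70 to 5.41 (median 5.02), a difference of 4.02 ± 0.19 (SE, adjusted p = 5.36e-13). In the ESC arrays these 3 genes averaged 10.96, 11.35 and 8.76. The death receptor Fas (2.98) and Trp53inp1 (1.84) were higher, Trp53 itself was lower (-0.60 ± 0.12), and so were Cdkn1c (-1.82), an inhibitor that is high in differentiating kidney cells, and the pocket protein gene Rbl1 (-1.07).

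Of 17 genes of the unfolded protein response and of the transcription factor ATF4, which cells use when protein folding or amino acid supply falls short, 14 were higher and none lower, with a median difference of 1.20. Herpud1, which serves the removal of misfolded proteins, measured 10.17, 10.42 and 10.63 against 8.04 to 8.37 (median 8.30), a difference of 2.18 ± 0.16 (SE, adjusted p = 4.78e-10). Ddit3, the transcription factor CHOP, measured 8.38, 8.51 and 8.69 against 6.17 to 6.77 (median 6.47), a difference of 2.08 ± 0.15 (SE, adjusted p = 4.95e-10). Both were clear of the kidneys on every array. Asns (1.79), Trib3 (1.54), Chac1 (1.5), the chaperone Hspa5 (0.68) and Atf4 (0.67) were higher, and Sdf2l1 (0.03, adjusted p = 0.941) and the serine synthesis genes Psat1 (-0.11, adjusted p = 0.726) and Phgdh (-0.41, adjusted p = 0.118) were not called. The letters TGATGCAA, a form of the ATF4 motif, stood in the promoter windows of Herpud1, Chac1, Vldlr and Atf3, 4 of 17 genes (23.5%), against 0.941% of all genes. The Chac1 window, chr2:119350992-119351291 on the plus strand, is shown with the match in capitals.
Chac1: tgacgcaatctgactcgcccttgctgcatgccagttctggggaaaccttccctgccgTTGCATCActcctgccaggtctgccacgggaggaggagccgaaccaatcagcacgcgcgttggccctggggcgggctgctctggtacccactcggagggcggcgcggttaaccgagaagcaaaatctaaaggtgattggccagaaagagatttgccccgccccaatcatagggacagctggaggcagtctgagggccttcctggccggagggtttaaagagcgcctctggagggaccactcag

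Genes that cells raise when oxygen is short were higher for 10 of 20 in a list that also held glycolysis. Adm, the vessel-relaxing peptide adrenomedullin, measured 8.70, 8.65 and 9.18 against 4.91 to 5.69 (median 5.38), a difference of 3.54 ± 0.26 (SE, adjusted p = 5.52e-10). Ndrg1 (2.21), the oxygen sensor Egln3 (2.13) and the collagen hydroxylase P4ha1 (1.96) were higher, as were Bnip3 (1.88) and Slc2a1, the glucose transporter (1.08). Most glycolytic enzymes were not: of these Pfkp was higher (2.01) and Pgk1 by less (0.45), Pkm was lower (-0.36), and Hk2 (0.26, adjusted p = 0.3), Ldha (0.21, adjusted p = 0.341), Aldoa (0.24, adjusted p = 0.178) and Eno1 (-0.07, adjusted p = 0.72) were not called. Pgk1 was at 0.25 without progenitor replicate 1 (adjusted p = 0.286) and 0.42 without E12.5 replicate 2 (adjusted p = 0.0534), and the call of Pkm ended without progenitor replicates 2 and 3, E12.5 replicates 1 and 3 and E13.5 replicates 1, 2 and 3, each left out alone, with an adjusted p of up to 0.413. The metal-binding genes Mt1 (2.23) and Mt2 (1.61) were higher in a list of 15 oxidative stress genes of which 5 were higher and 1, Txnrd1 (-0.69), was lower. Lysosomal genes were higher for 18 of 25 and lower for none, by modest amounts: Ctsl 1.23 and Lamp2 1.16, with a median of 0.68. Of 21 cholesterol synthesis genes, 9 were higher, among them Insig1 (1.41), and Mvk (-0.48, and -0.34 without progenitor replicate 1, adjusted p = 0.115) was among the lower.

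The last medium held Fgf2 and Bmp7. Of 16 genes by which cells feed back on FGF signalling, 8 were higher and 2 lower. Spry2, an inhibitor of receptor signalling, measured 9.51, 9.90 and 10.12 against 7.38 to 7.80 (median 7.5), a difference of 2.34 ± 0.13 (SE, adjusted p = 9.05e-12). Ier3 (2.52), Etv1 (1.48) and Spry4 (1.27) were higher, Etv4 (-1.30) and Dusp5 (-0.84) were lower, and Etv5 was not called (-0.01). Egr1 was higher by 1.79, and by 1.00 without progenitor replicate 3 (adjusted p = 0.0793). Of 15 BMP targets and antagonists, the antagonists Grem1 (2.18) and Nog (0.87) were higher and Bmper was lower (-1.34), while the direct targets Id1 (0.32, adjusted p = 0.5), Id2 (-0.70, adjusted p = 0.0574) and Id4 (0.06, adjusted p = 0.926) were not called.

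The genes that copy DNA were lower almost without exception. Of 37 replication genes, 35 were lower in the progenitors and none higher, with a median difference of -1.14. Cdc6, which loads the replicative helicase, measured 7.23, 7.35 and 6.49 against 8.80 to 8.99 (median 8.91), a difference of -1.88 ± 0.14 (SE, adjusted p = 6.05e-10). Mcm3, a subunit of that helicase, measured 9.27, 8.70 and 8.13 against 10.05 to 10.47 (median 10.27), a difference of -1.61 ± 0.16 (SE, adjusted p = 2.98e-08). Replicate 3 was the lowest of the progenitors in both. Dna2 (-1.91), Mcm6 (-1.46) and the sliding clamp Pcna (-0.87) were lower, and Orc6 (-0.01, adjusted p = 0.95) and Cdt1 (-0.42, adjusted p = 0.0729) were not called. In the ESC and intermediate mesoderm arrays Cdc6 averaged 8.66 and 8.82, near the kidneys. All 21 DNA repair genes were lower. Fancd2, Fanci, Rad51ap1 and Xrcc2 were not called without progenitor replicate 3 (adjusted p = 0.242 for Xrcc2 to 0.371 for Fanci). Fanci was also not called without E12.5 replicate 1 or E13.5 replicate 2, each left out alone. Exo1, a nuclease of mismatch and break repair, measured 7.88, 7.35 and 6.54 against 9.16 to 9.36 (median 9.27), a difference of -2.04 ± 0.18 (SE, adjusted p = 4.62e-09). Nucleotide synthesis was lower for 20 of 23. Rrm2, a subunit of the enzyme that makes deoxynucleotides, measured 7.73, 7.37 and 7.04 against 8.90 to 9.16 (median 8.99), a difference of -1.68 ± 0.16 (SE, adjusted p = 2.4e-08), and Mthfd2 alone was higher (0.52, and 0.51 without progenitor replicate 2 (adjusted p = 0.0691) and 0.40 without progenitor replicate 3, adjusted p = 0.119).

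Mitotic genes were lower too, unevenly between the progenitor arrays. Of 36, 33 were lower and none higher, with a median of -0.90. Birc5, the chromosome passenger survivin, measured 6.81, 6.46 and 5.47 against 7.54 to 7.83 (median 7.70), a difference of -1.52 ± 0.22 (SE, adjusted p = 6.81e-06). Mki67, the proliferation antigen, measured 10.69, 10.44 and 9.79 against 10.58 to 11.13 (median 10.94), a difference of -0.59 ± 0.22 (SE, adjusted p = 0.0397), and overlapped with the kidneys in replicate 1. Its call ended without progenitor replicates 2 and 3, E12.5 replicates 1 and 2 and E13.5 replicates 2 and 3, each left out alone, with an adjusted p of up to 0.303. Bub1b (-1.38), Aurkb (-1.36) and Aurka (-0.85) were lower, and Smc4 (-0.39, adjusted p = 0.0607), Ndc80 (-0.48, adjusted p = 0.06) and Esco2 (-0.53, adjusted p = 0.112) were not called. The list's mean signal was 8.91, 8.48 and 7.82 in progenitor replicates 1, 2 and 3 and 9.19 to 9.33 in the kidneys, so replicate 1 stood near the kidneys and replicate 3 far below. The replication list had the same order, 7.98, 7.79 and 7.42 against 8.74 to 8.86. Replication-dependent histone genes, which are transcribed while DNA is copied, were lower for 29 of 52 and higher for none, led by Hist1h2ag (-2.59) and Hist1h1b (-2.45); near-identical copies share probes, so the single genes are uncertain.

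Promoter windows were searched for TTTGGCGC and TTTCCCGC, forms of the E2F motif, and for TTTGAA, the CHR element of genes that peak in mitosis, on both strands. An E2F match was found in 11 of 30 replication genes with a window (36.7%) and in 3 of 16 repair genes (18.8%), against 2.34% of all genes. TTTGAA was found in 21 of 28 mitotic genes (75%), against 17.9%. In none of the 129 list genes did matches to different motifs overlap. Cdc6 (chr11:98907901-98908200, plus strand) and Mcm6 (chr1:128359656-128359955, minus strand) are shown with their E2F matches in capitals and Aurka (chr2:172370521-172370820, minus strand) with its TTTGAA match, each as an example of its list.
Cdc6: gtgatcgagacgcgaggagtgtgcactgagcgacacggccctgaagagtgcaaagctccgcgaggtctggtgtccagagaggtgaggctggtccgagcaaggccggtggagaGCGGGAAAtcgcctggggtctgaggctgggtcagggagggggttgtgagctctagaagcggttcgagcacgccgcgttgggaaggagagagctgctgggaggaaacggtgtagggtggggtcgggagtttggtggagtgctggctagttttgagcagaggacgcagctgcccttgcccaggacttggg
Mcm6: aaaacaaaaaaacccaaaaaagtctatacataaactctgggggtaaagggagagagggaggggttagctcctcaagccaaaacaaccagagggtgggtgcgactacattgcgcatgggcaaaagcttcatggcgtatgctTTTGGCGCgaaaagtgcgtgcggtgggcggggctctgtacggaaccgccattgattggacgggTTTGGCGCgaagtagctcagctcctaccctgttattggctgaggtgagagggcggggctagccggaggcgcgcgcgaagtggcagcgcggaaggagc
Aurka: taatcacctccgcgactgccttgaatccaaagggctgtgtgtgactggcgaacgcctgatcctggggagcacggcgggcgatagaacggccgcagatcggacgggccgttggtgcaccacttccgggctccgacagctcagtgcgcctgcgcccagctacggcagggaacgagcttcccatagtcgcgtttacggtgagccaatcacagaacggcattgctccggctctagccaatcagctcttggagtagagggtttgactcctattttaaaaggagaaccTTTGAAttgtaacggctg

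Several groups of genes were high in some progenitor arrays and not in others. Of 20 pluripotency genes, 9 were higher than in the kidneys and none lower, and their mean signal was 7.59, 6.63 and 5.44 in replicates 1, 2 and 3 against 5.06 to 5.36 in the kidneys. Nanog, a core factor of ESCs, measured 9.88, 8.48 and 5.21 against 4.35 to 4.87 (median 4.6), a difference of 3.14 ± 0.57 (SE, adjusted p = 0.000134). Tdgf1, a co-receptor for Nodal, measured 10.66, 7.87 and 4.02 against 3.78 to 4.6 (median 4.17), a difference of 3.29 ± 0.79 (SE, adjusted p = 0.00207). Zfp42, the ESC marker Rex1, measured 9.68, 8.23 and 4.64 against 4.88 to 5.15. Utf1, a chromatin protein of ESCs, measured 8.96, 8.11 and 4.85 against 4.63 to 5.19. In all 4 genes replicate 1 was highest, replicate 2 high and replicate 3 close to the kidneys. Sox2 was high throughout, with 9.70, 7.99 and 8.28 against 3.62 to 5.22 (median 4.34), a difference of 4.19 ± 0.35 (SE, adjusted p = 2.63e-09), and a mean of 10.84 in the ESC arrays; the gene also serves neural progenitors. Pou5f1, the factor Oct4, was not called, with 6.82, 5.98 and 5.93 against 5.42 to 6.23, and replicate 1 lay above every kidney. The ESC arrays averaged only 7.43 for Pou5f1, against 11.48 for Nanog, so the Pou5f1 signal separates ESCs from kidneys poorly. Lin28a was higher by 0.77 (adjusted p = 0.0271), a call that ended without progenitor replicates 1 and 2 and E13.5 replicate 1, each left out alone, with an adjusted p of up to 0.383. Without progenitor replicate 1, 3 of the 20 genes were called, and without replicate 2, 4. Tdgf1 was at 1.72 without progenitor replicate 1 (adjusted p = 0.055), Zfp42 at 1.45 without progenitor replicate 1 (adjusted p = 0.161) and 1.82 without progenitor replicate 2 (adjusted p = 0.105) and Utf1 at 1.51 without progenitor replicate 1 (adjusted p = 0.0711) and 1.64 without progenitor replicate 2 (adjusted p = 0.0644).

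Neural genes were highest in replicates 1 and 3. Of 19, 9 were higher and 3 lower, and the list's mean signal was 6.74, 5.88 and 7.01 against 5.98 to 6.28, with replicate 2 below the kidneys. Fabp7, a lipid carrier of radial glia, measured 11.66, 7.10 and 11.17 against 7.15 to 7.44 (median 7.22), a difference of 2.56 ± 0.59 (SE, adjusted p = 0.00135) that was 1.16 under array weights (adjusted p = 0.104). The neuronal genes Stmn2 (9.82, 7.36 and 10.23 against 6.67 to 7.55), Tubb3 (7.82, 6.87 and 8.95 against 5.06 to 6.58) and Snap25 (8.58, 6.64 and 10.85 against 6.09 to 7.52) were higher by 2.17, 2.00 and 1.95. Snap25 was at 0.76 without progenitor replicate 3 (adjusted p = 0.287). Nes (-1.20), Dcx (-1.82) and the glial receptor Erbb3 (-1.92) were lower. Without replicate 1, 5 of the 19 were higher, and without replicate 3, 4. Zic1, a zinc finger factor of the dorsal neural tube and the somites, was among the 12 largest increases, with 10.14, 8.06 and 10 against 4.51 to 5.44 (median 4.92), a difference of 4.36 ± 0.32 (SE, adjusted p = 5.69e-10), and replicate 2 lowest.

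Adipocyte genes were lowest in replicate 1. Of 12, 10 were higher and none lower, and their mean was 5.99, 7.01 and 7.54 against 5.34 to 5.47. Lpl, the lipase of capillary walls, measured 7.60, 10.54 and 10.49 against 6.46 to 6.91 (median 6.84), a difference of 2.84 ± 0.44 (SE, adjusted p = 1.8e-05). Fabp4, the fatty acid carrier of fat cells, measured 6.54, 9.37 and 10.30 against 6.46 to 7.81, a difference of 1.67 that was 1.54 without progenitor replicate 2 (adjusted p = 0.0862) and 1.03 without progenitor replicate 3 (adjusted p = 0.197), and Pparg, the regulator of fat cell formation, 5.83, 7.29 and 8.38 against 5.32 to 5.47 (difference 1.83 ± 0.31). Cd36 (2.69) and Cebpa (2.45) were higher, and Adipoq, the hormone of mature fat cells, was not called (0.67, adjusted p = 0.0985). Surface ectoderm genes were higher for 6 of 8, led by Perp (1.61), and for 1 without replicate 2 and 3 without replicate 1. Perp averaged 8.10 in the ESC arrays, above its progenitor mean of 7.20, and Krt5 averaged 5.69, below its progenitor mean of 7.03. Of 12 endoderm and liver genes, Rbp4 (1.36) and Foxa2 (1.08) were higher and none lower, a share higher near the 14.2% of all genes. The rest were not called, among them Ttr (0.73, adjusted p = 0.351), Alb (-0.68, adjusted p = 0.546) and Afp (-0.97, adjusted p = 0.176). Foxa2 averaged 7.54 in the ESC arrays and 7.46 in the progenitors, and Rbp4 6.49 and 7.56.

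**Figure D5:**
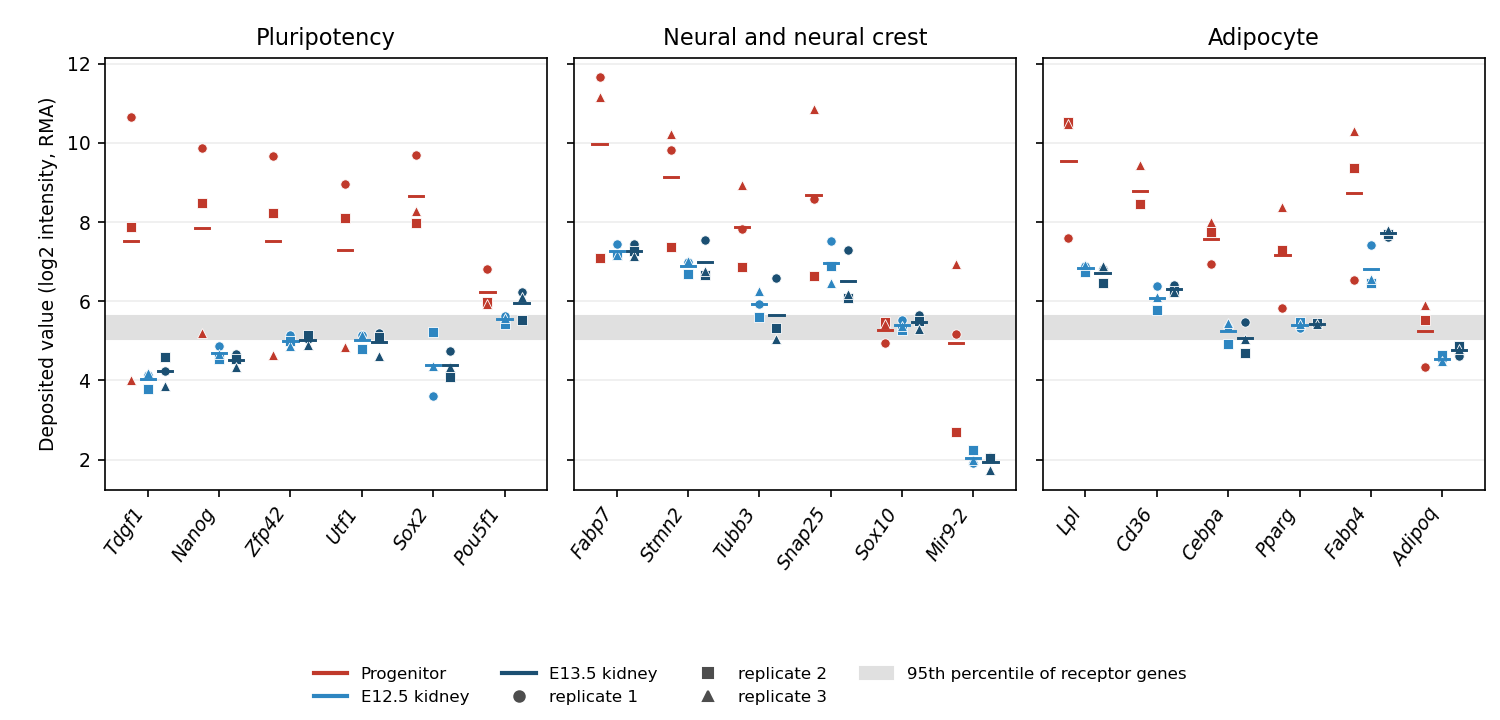
Log2 signal (vertical axis) of 6 pluripotency, 6 neural and 6 adipocyte genes in the 3 progenitor (red), 3 E12.5 (light blue) and 3 E13.5 (dark blue) arrays; circle, square and triangle are replicates 1, 2 and 3, short bars are group means, and the grey band is the receptor gene level. The progenitor replicates spread by several units, with replicate 1 highest for Tdgf1 and Nanog, replicate 2 lowest for Fabp7 and Stmn2, and replicate 1 lowest for Lpl, while the kidneys of most genes lie closer together.

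Of 511 microRNA genes on the arrays, 90 were higher in the progenitors (17.6%) and 12 lower (2.35%), with a median difference of 0.15. The share higher was close to that of the receptor genes and to that of all genes (14.2%), so it is not particular to microRNA genes. The share lower was below that of all genes (20%), as it was for the receptor genes. The probes read the gene or its hairpin transcript, not the mature microRNA. Under alternative settings the higher count ran as low as 43, without replicate 2. The genes of largest change without overlap were Mir101c, Mir9-2, Mir453 and Mir434 among the higher and Mir1983, Mir5103, Mir3061 and Mir1949 among the lower. Mature sequences from RefSeq (GRCm38.p6) are given to show which target sites each could read, with the seed, bases 2 to 8, in capitals; no seed was shared among them.
miR-101c: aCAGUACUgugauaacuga
miR-9-5p: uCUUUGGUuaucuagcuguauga
miR-9-3p: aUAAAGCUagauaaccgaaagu
miR-453: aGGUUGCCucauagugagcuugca
miR-434-5p: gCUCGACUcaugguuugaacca
miR-434-3p: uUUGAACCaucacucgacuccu
miR-1983: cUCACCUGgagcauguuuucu
miR-5103: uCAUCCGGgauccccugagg
miR-3061-5p: cAGUGGGCcgugaaagguagcc
miR-3061-3p: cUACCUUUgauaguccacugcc

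Mir101c measured 9.11, 8.43 and 5.33 against 3.25 to 4.40, a difference of 3.63 ± 0.61 (SE, adjusted p = 5.59e-05), and like the pluripotency genes was lowest in replicate 3. Mir9-2, a gene of the neural microRNA miR-9, measured 5.17, 2.70 and 6.94 against 1.74 to 2.25, a difference of 2.89 ± 0.58 (SE, adjusted p = 0.000345), and like the neural genes was lowest in replicate 2. Mir453 (8.62, 9.56 and 9.06 against 6.16 to 7.49) and Mir434 (4.71, 5.92 and 6.09 against 3.39 to 4.13) were higher by 2.21 ± 0.41 and 1.78 ± 0.38, with replicate 1 lowest in both. Mir1983 measured 4.68, 4.96 and 4.05 against 6.06 to 7.72, a difference of -2.40 ± 0.36 (SE, adjusted p = 1.17e-05), and Mir5103 6.66, 6.81 and 6.0 against 7.87 to 8.14, a difference of -1.51 ± 0.15 (SE, adjusted p = 2.57e-08). Every progenitor lay below every kidney for both. The differences of Mir3061 and Mir1949 were -1.15 ± 0.22 and -1.11 ± 0.26.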

How the data were processed

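RNA from the cultures and kidneys was labelled with the WT PLUS kit, after extraction with an RNeasy kit, and hybridised to Affymetrix Mouse Gene 2.0 ST arrays. The authors deposited 1 table of log2 values, normalized by RMA, for 23986 gene symbols on 30 arrays; tool versions, the probe annotation and the genome build were not found in the labels or methods. RMA sets all arrays to 1 distribution, so a shift of the total RNA cannot be seen. Here the deposited log2 values were fitted in limma 3.58.1 (R 4.3.3) over all 30 arrays, with 10 group means and a batch term (19 residual degrees of freedom), and p-values were adjusted by the Benjamini-Hochberg method over all genes. On simulated data with equal spread this fit called few unchanged genes; with a wider spread among the progenitors it called many, and weights estimated by group kept them few but found fewer small changes. Adjusted p-values in the text come from limma. The 45 gene lists (2746 of 2765 members measured; some genes stand in several) are described by counts and medians, with no set test. Named genes were those the study uses as markers, the 12 largest increases and decreases without overlap, up to 4 called members per list and direction, 4 microRNA genes per direction and the 8 genes of largest SD over the progenitors; some others are named to complete a count or pathway, and some genes that the rule takes in are not reported here. The genes, lists and tests were chosen with earlier results of these data known. Symbols were matched to RefSeq for 23143 genes, and 440 of 511 microRNA genes had a sequence. Alternatives changed the batch term, arrays, weights, normalization, dim-gene filter, prior and threshold, or left out each array. Figures were drawn with matplotlib 3.10.9.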

Additional observations from a re-analysis of the deposited data

How the results depend on the processing

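Of the 231 genes that the naming rule took in, none reversed under the 21 alternative settings, and 177 kept their side of the threshold under each setting that tested them; the dim-gene filter tested 217. Without 1 array, the genes called against both ages numbered 6517 (without progenitor replicate 2) to 8580 (without progenitor replicate 3), with 2704 to 3429 higher and 3813 to 5151 lower. Against E12.5 they numbered 5429 to 7369 (2055 to 2876 higher, 3217 to 4493 lower), and against E13.5 5129 to 7257 (1857 to 2700 higher, 3233 to 4557 lower). Weights estimated by group gave 2162 higher genes in place of 3410 and 5884 in all. A minimum of 1 on the log2 scale left 2078 genes (997 higher, 1081 lower), 2141 against E12.5 (1013 and 1128) and 2034 against E13.5 (962 and 1072). Between E13.5 and E12.5, where limma called none, batch 2 alone gave 1, array weights 5, group weights 6, and leaving out 1 array 0 to 1. The replicate numbers did not pair the samples (correlations of deviations from the group means -0.224 to 0.089), and the fit with the replicate number as a block called 8392 genes, 8011 of them shared with the fit reported.

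Among the genes that the naming rule took in, calls ended most often under the threshold of 1 (34 genes) and in batch 2 alone (22). Next came the fits without progenitor replicate 1 (21) or 2 (19) and under group weights (18). Of the list counts, macrophage genes went from 8 lower to 5 in batch 2 alone, neural genes from 9 higher to 2 under array weights, pluripotency genes from 9 to 3 in batch 2 alone, surface ectoderm genes from 6 to 2 and proteases from 9 to 5 under group weights, chemokines from 11 to 7 under the dim-gene filter, and microRNA genes from 90 to 46 in batch 2 alone. Lower microRNA genes went from 12 to 21 under array weights. The cause was not tested. Few arrays, a wider spread among the progenitors and signals near those of olfactory receptor genes limit small differences.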

Other observations

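Imprinted genes, which are read from the copy of 1 parent, were higher for 6 of 19 and lower for 3. Grb10, an adaptor that restrains growth factor receptors, measured 7.20, 7.67 and 7.65 in progenitor replicates 1, 2 and 3 and 11.09 to 11.25 (median 11.19) in the kidneys, a difference of -3.58 ± 0.32 (SE, adjusted p = 1e-08), or 12-fold. The kidneys lay within a narrow range, all far above the progenitors, and the ESC arrays averaged 9.44. Sgce (1.80), Peg10 (1.31), Dlk1 (1.05) and the maternal noncoding RNAs Rian (1.53) and Mirg (1.16) were higher, Dlk1 at 0.85 without progenitor replicate 2 (adjusted p = 0.0823) and 0.75 without progenitor replicate 3 (adjusted p = 0.0963). The call of the other higher gene, Zim1 (1.14, adjusted p = 0.0418), ended without progenitor replicates 1, 2 and 3, E12.5 replicates 1 and 3 and E13.5 replicates 2 and 3, each left out alone, with an adjusted p of up to 0.211, and without progenitor replicate 2 or 3 the higher genes numbered 4. Cdkn1c was lower (-1.82) and Nnat was lower (-1.30) but not without progenitor replicate 2 (-0.93, adjusted p = 0.149). The growth factor Igf2 was not called (0.01, adjusted p = 0.985). Rian and Mirg are transcribed between Dlk1 and Dio3, where many microRNA genes lie. Of 49 microRNA genes that RefSeq places there, 22 were higher (44.9%) and none lower, with a median difference of 0.75, against 68 of 462 others (14.7%) with a median of 0.11; the set was chosen after its values were seen, several of its members lie in shared transcripts, and no test was made.

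Of 6 sex-linked genes, 5 were lower in the progenitors. Xist, which silences an X chromosome, measured 4.77, 4.63 and 4.08 in the progenitors and 8.80 to 10.31 (median 9.65) in the kidneys, a difference of -5.14 ± 0.25 (SE, adjusted p = 5.36e-13). Kdm5d, on the Y chromosome, measured 2.76, 2.32 and 2.77 against 6.70 to 7.38, a difference of -4.30 ± 0.28, and Uty, Eif2s3y and Ddx3y were lower too (-3.26, -3.23 and -2.84). Each kidney array had both Xist and the Y-linked genes far above the progenitor arrays. The ESC arrays averaged 6.33 for Xist and 3.15 for Kdm5d.

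Other genes of large difference stood outside these lists. Hsd3b6, a steroid dehydrogenase with near-identical relatives, measured 3.88, 3.16 and 3.43 against 8.21 to 10.59 (median 9.40), a difference of -5.96 ± 0.54 (SE, adjusted p = 9.56e-09). Ptgs2, the inducible enzyme of prostaglandin synthesis, measured 9.71, 7.67 and 8.83 against 4.31 to 5.09, and averaged 10.28 in the ESC arrays. Among the genes with the largest SD over the progenitors, the zinc finger genes Zfp640 (8.60, 7.86 and 2.41), Mszf81 (8.22, 7.66 and 3.34) and Zfp981 (8.75, 7.19 and 3.97) were high in replicates 1 and 2 and low in replicate 3. Mszf81 and Zfp981 were not called without replicate 1 (adjusted p = 0.266 and 0.133) or replicate 2 (adjusted p = 0.234 and 0.0686), and Mszf81 also not without E13.5 replicate 1 (adjusted p = 0.0818). Cym, the protease chymosin (6.63, 11.80 and 10.12 against 5.69 to 6.04), and Abca8a, a lipid transporter (4.93, 9.34 and 8.15 against 2.99 to 3.92), were lowest in replicate 1, and Gkn2 (8.48, 11.23 and 6.28 against 3.95 to 7.00) was highest in replicate 2.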
